A study of Homo sapiens with 2 samples.

Results

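Interferon and double-stranded RNA response genes were examined through 5 genes, ISG20, CXCL10, IRF7, IRF3 and TLR3, out of 14884 genes that the array's annotation names. The genes were picked by symbol, with earlier results of these same arrays in view, and each was represented by its brightest probe set, which here is its only one. The cells were SNK6, an Epstein-Barr virus-positive NK/T-cell lymphoma line of human origin grown with interleukin-2. One culture was given romidepsin plus sildenafil for 72 h (1 array) and the other romidepsin alone for 72 h (1 array). Both groups therefore share the cell line, the interleukin-2 and romidepsin, which inhibits histone deacetylases of class I, and they differ by sildenafil, a phosphodiesterase inhibitor. The sample titles give only a short form of the second drug, and it was taken to be sildenafil from the treatment protocol. The labels state no doses, and cultures without romidepsin were not analysed here.

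Cells detect double-stranded RNA, a by-product of viral replication and of derepressed repeat elements, through TLR3 in endosomes and through RIG-I-like helicases in the cytosol. Adaptor proteins pass the signal to kinases that activate the transcription factors IRF3 and IRF7, which switch on interferon genes. Secreted interferon then signals through Janus kinases to induce a broad set of interferon-stimulated genes, among them ISG20 and CXCL10. Natural killer and T cells both respond to interferon and are drawn to tissues by CXCL10.

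The values are log2 signals of single probe sets, so each is a level on an array and a difference of 1 is a doubling of signal. With 1 array per group there was no replicate check, and no difference could be tested or given an error. Each difference is the log2 signal with romidepsin plus sildenafil minus that with romidepsin. Genes passed a filter on low signal if at least 1 array read 3.91 (the overall median of the deposited values) or more, and 10081 named genes did so. All 5 genes were above that level on both arrays. In such bulk samples fewer cells expressing a gene and less RNA per cell cannot be told apart.

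The 5 genes did not differ in the same direction. ISG20, CXCL10, IRF3 and TLR3 were lower with romidepsin plus sildenafil than with romidepsin, and IRF7 was higher. Of the 5, 1 gene (ISG20) was at least 1.5-fold lower and 0 were at least 1.5-fold higher. Among all 10081 genes 98 (0.972%) were at least 1.5-fold lower and 103 (1.02%) at least 1.5-fold higher. Under median centring of the arrays those counts were 116 lower and 78 higher, and under lowess centring 136 lower and 57 higher. The share of higher genes among the calls was thus 40.2% and 29.5% under these centrings, against 51.2% as deposited. The median difference of the 5 genes was -0.37, against -0.01 over all 10081 genes. Since the genes were chosen for their differences on these arrays, these counts and the median only describe them.

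**Figure D1:**
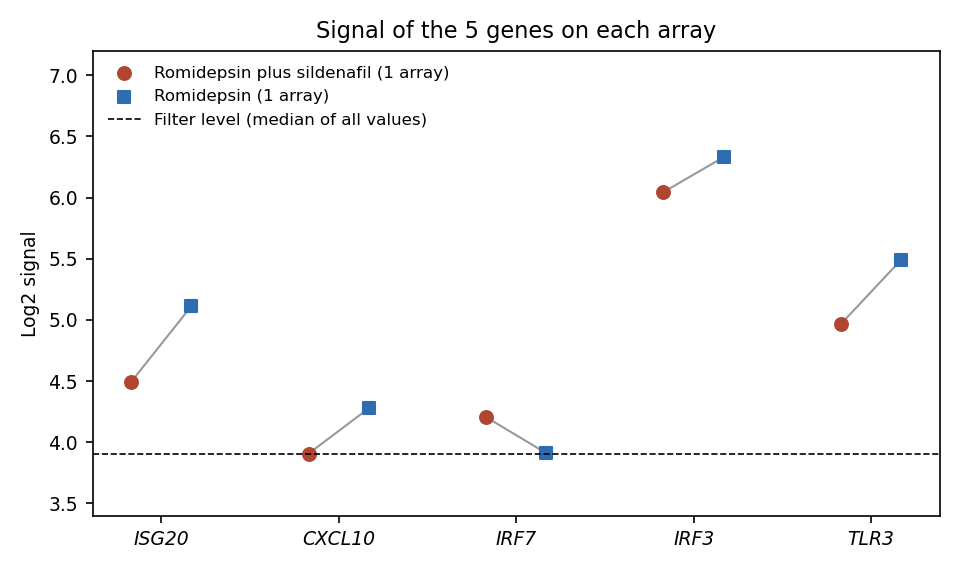
Log2 signal (vertical axis) of ISG20, CXCL10, IRF7, IRF3 and TLR3 on the romidepsin plus sildenafil array (circles, left of each pair) and the romidepsin array (squares, right), 1 array per group, with the filter level of 3.91 as a dashed line. In 4 of the 5 pairs the circle lies below the square, and in IRF7 it lies above; CXCL10 with sildenafil and IRF7 without it lie on the dashed line.

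Of the 5 genes, ISG20, CXCL10 and TLR3 had a start region in the RefSeq promoter table (build GRCh38.p14), and IRF3 and IRF7 did not. The stretches are shown for every one of the 5 genes with an entry, whatever its direction. All of them hold the letters that interferon-activated factors are known to recognise. Each runs 5′ to 3′ in the direction of transcription, from 250 bases before to 10 after the start of the listed transcript. Capitals mark matches to 3 motifs, each searched on both strands over 250 bases before to 50 after the start. The core of the interferon-stimulated response element was GAAA followed, after any 2 bases, by GAAA. The NF-kappaB type sequence was GGGA followed, after any 2 bases, by TTCC, and the STAT type sequence was TTCNNNGAA.
ISG20, chr15:88638766-88639025, plus strand: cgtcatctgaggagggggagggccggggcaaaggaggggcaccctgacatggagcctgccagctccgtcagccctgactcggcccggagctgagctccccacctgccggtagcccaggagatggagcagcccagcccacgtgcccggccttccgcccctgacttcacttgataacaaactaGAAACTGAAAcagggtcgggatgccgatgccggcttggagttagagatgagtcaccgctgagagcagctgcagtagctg
CXCL10, chr4:76023488-76023747, minus strand: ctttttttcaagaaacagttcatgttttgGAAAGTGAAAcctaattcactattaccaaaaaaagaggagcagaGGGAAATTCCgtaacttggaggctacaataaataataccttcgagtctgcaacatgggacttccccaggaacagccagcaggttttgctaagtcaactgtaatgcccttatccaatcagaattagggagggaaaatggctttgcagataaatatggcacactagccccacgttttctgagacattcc
TLR3, chr4:186068906-186069165, plus strand: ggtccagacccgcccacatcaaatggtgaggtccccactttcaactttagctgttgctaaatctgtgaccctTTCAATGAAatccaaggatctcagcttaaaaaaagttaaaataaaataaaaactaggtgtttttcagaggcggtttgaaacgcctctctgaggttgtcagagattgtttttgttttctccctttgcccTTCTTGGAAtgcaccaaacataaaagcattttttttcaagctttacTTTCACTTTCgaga

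The response element letters occurred once in each of the 3 promoters. In ISG20 the match GAAACTGAAA began at position -69, and in CXCL10 the match GAAAGTGAAA began at position -221. In TLR3 the match TTTCACTTTC, which reads as the element on the opposite strand, began at position -4 and so crossed the start. CXCL10 also held the NF-kappaB type letters at position -177 (GGGAAATTCC). TLR3 held the STAT type letters at positions -178 and -50, and no match overlapped another. Of all 27305 listed promoters, 3.65% held the response element letters, 1.63% the NF-kappaB type letters and 7.88% the STAT type letters. A match describes the letters in the window and says nothing of binding in these cells, which was not measured.

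TLR3 is the endosomal receptor for double-stranded RNA and signals through the adaptor TICAM1. Its probe set (16972993) read 4.97 with romidepsin plus sildenafil and 5.49 with romidepsin, a difference of -0.53, or 1.44-fold lower with sildenafil. The 500 genes nearest to TLR3 in mean signal had differences with a median of -0.00 and an SD of 0.24. Among these, 10 (2.0%) differed at least as far downward, and TLR3 lay below the central 95% of them (-0.46 to 0.45). Over all 10081 genes it was number 145 from the lowest. TLR3 did not reach 1.5-fold.

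IRF3, which is present in most resting cells and is activated by phosphorylation, read 6.04 with romidepsin plus sildenafil and 6.33 with romidepsin (probe set 16874347). The difference was -0.29, or 1.22-fold lower with sildenafil. Differences of the 500 genes of like signal had an SD of 0.18 and a median of -0.04, so they lay slightly low themselves. Of these genes, 41 (8.2%) were at least as far downward, and IRF3 lay inside their central 95% (-0.39 to 0.32). 

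IRF7, the related factor that interferon itself induces and that amplifies the response, went the other way. Its signal (probe set 16733995) was 4.21 with romidepsin plus sildenafil and 3.91 with romidepsin, a difference of 0.30, or 1.23-fold higher with sildenafil. Without sildenafil IRF7 lay only 0.004 above the filter level. Among its 500 genes of like signal, whose differences had an SD of 0.28 and a median of 0.05, 95 (19.0%) were at least as far upward. Of the 5 genes IRF7 had the most such neighbours, and the gap between the IRF7 and IRF3 differences was 0.58.

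ISG20 encodes an interferon-induced exonuclease that degrades single-stranded RNA. Its probe set (16804490) read 4.49 with romidepsin plus sildenafil and 5.11 with romidepsin, a difference of -0.62, or 1.54-fold lower with sildenafil. On the linear scale that is 22.5 against 34.6 signal units. Of the 500 genes of like signal, whose differences had an SD of 0.255 and a median of 0.03, 7 (1.4%) were at least as far downward, and ISG20 lay below their central 95% (-0.54 to 0.53). It was number 78 from the lowest of all 10081 genes.

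CXCL10 encodes a chemokine that attracts activated T and NK cells through the receptor CXCR3. Its signal (probe set 16977052) was 3.91 with romidepsin plus sildenafil and 4.28 with romidepsin, a difference of -0.37, or 1.29-fold lower with sildenafil. With sildenafil it lay 0.001 above the filter level. Among its 500 genes of like signal the differences had an SD of 0.29 and a median of 0.06, and 25 (5.0%) were at least as far downward. CXCL10 lay inside their central 95% (-0.50 to 0.60).

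**Figure D2:**
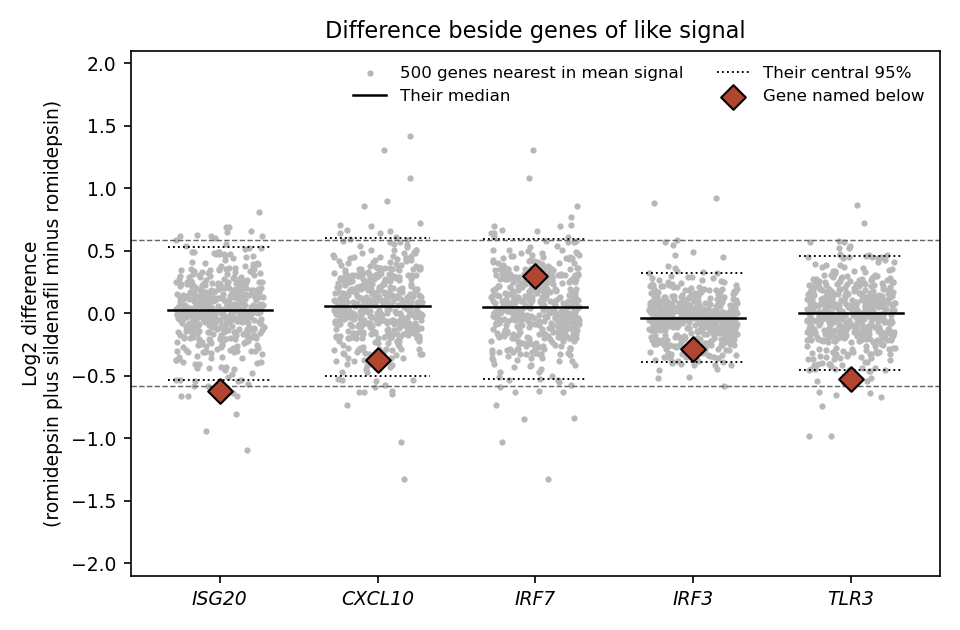
Log2 difference (romidepsin plus sildenafil minus romidepsin, vertical axis) of each of the 5 genes (diamonds) over those of the 500 named genes nearest to it in mean signal (grey points), with their median (solid line), their central 95% (dotted lines) and the 1.5-fold levels (dashed lines). ISG20 and TLR3 lie below the central 95% of their neighbours, while CXCL10, IRF7 and IRF3 lie inside it.

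The spread among neighbours fell with signal, with an SD of 0.29 around CXCL10 and 0.18 around IRF3. A difference of like size therefore stood further from the bulk for IRF3 than for IRF7. In units of that SD the differences were -2.43 for ISG20, -2.20 for TLR3, -1.57 for IRF3, -1.30 for CXCL10 and 1.04 for IRF7. The neighbours' median, -0.04 around IRF3 and 0.06 around CXCL10, was not subtracted. By the share of neighbours at least as far downward, CXCL10 (5.0%) came before IRF3 (8.2%). These ratios and shares describe spread between genes on a pair of arrays, not between cultures.

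**Figure D3:**
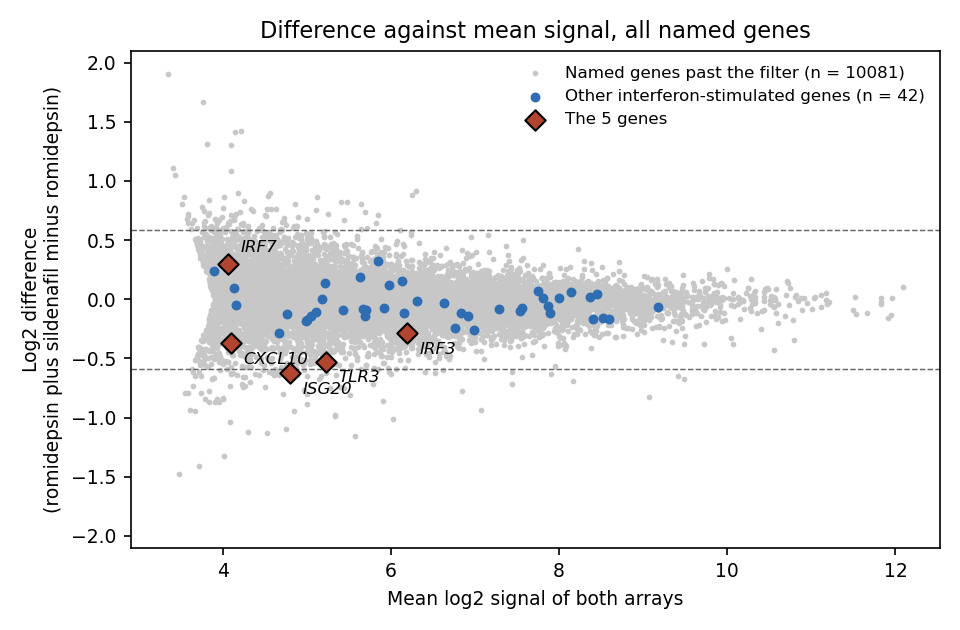
Log2 difference (romidepsin plus sildenafil minus romidepsin, vertical axis) against the mean log2 signal of both arrays (horizontal axis) for the 10081 named genes past the filter (grey), the other 42 interferon-stimulated genes (blue) and the 5 genes (diamonds), with dashed lines at 1.5-fold. CXCL10 and IRF7 sit at the dim end, where the cloud is widest, and ISG20 lies beyond the lower dashed line.

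The other Toll-like receptor genes read in both directions, and many were dim. All 10 receptors were named, 7 were lower and 3 higher, against 52.4% lower over all genes past the filter, and 5 passed the filter. TLR4, TLR5 and TLR7, among the lower ones, were below the filter level on both arrays. Of those 5, TLR3, TLR2 (-0.47), TLR6 (-0.31) and TLR1 (-0.23) were lower, and TLR9, the receptor for unmethylated CpG DNA, was 0.25 higher. TLR2 read 3.47 with romidepsin plus sildenafil and 3.94 with romidepsin, so it passed only on the romidepsin array, where it is high. None of these receptors reached 1.5-fold, against 0.972% (lower) and 1.02% (higher) over all genes. With their adaptors 13 genes passed the filter, 9 lower and 4 higher, with a median of -0.08. The adaptor TIRAP, which links receptors to MYD88, differed by -0.28, while TICAM1 was at -0.14 and UNC93B1, which carries TLR3 to endosomes, at 0.17.

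The list of double-stranded RNA sensors and adaptors, which holds TLR3 as well as cytosolic sensors, had no common direction. Of 27 genes past the filter 16 were lower and 11 higher, or 15 and 11 of 26 without TLR3. Of the 27, 0 reached 1.5-fold, against 0.972% (lower) and 1.02% (higher) over all genes. Their median was -0.01, the same as over all genes, and it became 0.04 under quantile normalization and 0.02 under lowess centring. RNF135, a ubiquitin ligase that activates RIG-I, read 5.08 with romidepsin plus sildenafil and 5.62 with romidepsin, a difference of -0.54 that lay just below that of TLR3. TBKBP1, an adaptor that binds the kinase TBK1, differed by 0.46 and the adaptor TRADD by 0.31. The helicases themselves were at 0.10 (RIGI), -0.24 (IFIH1, which encodes MDA5) and -0.05 (DHX58), their mitochondrial adaptor MAVS at -0.26, and TBK1 at -0.01. EIF2AK2, which encodes the double-stranded RNA-activated kinase PKR, differed by -0.17.

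Of the 8 interferon regulatory factors measured, IRF3 and IRF7 stood at the ends. The others lay between -0.05 (IRF8) and 0.19 (IRF9), which joins STAT proteins in the complex that binds response elements. IRF1 was at 0.12, IRF4, a factor of activated lymphocytes, at 0.07, IRF2 at 0.01 and IRF5 at -0.01. The median of the 8 was 0.04, with 5 higher and 3 lower.

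The signalling genes downstream of interferon receptors were close to equal on the arrays. Of 13 past the filter 6 were higher and 7 lower, with a median of -0.02, which became 0.03 under quantile normalization and 0.02 under lowess centring. SOCS1, an inhibitor of Janus kinases, differed by -0.26, JAK2 by -0.24, IRF9 by 0.19 and USP18, a protease that removes ISG15 and restrains interferon signalling, by 0.15. Of the interferon receptors IFNGR1 alone passed the filter, at -0.11. The interferon genes, IFNAR1 and IFNAR2 are not analysed here.

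The wider list of interferon-stimulated genes leaned slightly lower with sildenafil, with a median nearer to 0 than ISG20 or CXCL10. ISG20 and CXCL10 were chosen for their differences and are dim, where the spread is wider, so this does not set them apart. Of 85 listed genes 56 were named and 45 passed the filter. Of these, 30 (66.7%) were lower, 14 higher and 1 (IFIT2) equal, against 52.4% lower over all genes. ISG20 was the only member at least 1.5-fold apart, against 0.972% (lower) and 1.02% (higher) over all genes. Of the 45, 37 lay within 0.2 of 0, as did 7131 of all 10081 genes. The median was -0.08 with ISG20, CXCL10 and IRF7 included and also -0.08 over the other 42. It stayed below 0 under the alternatives tried, from -0.11 under median centring to -0.03 under quantile normalization, where the median over all genes was -0.04 and 0.02.

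Single members of the list read in both directions. ISG15, a ubiquitin-like modifier, read 7.25 with romidepsin plus sildenafil and 7.33 with romidepsin, and BST2, which tethers budding virions, read 7.49 with romidepsin plus sildenafil and 7.58 with romidepsin. RSAD2, the antiviral enzyme viperin, was at -0.17, OASL at -0.01 and HELZ2, a helicase, at -0.29. The membrane proteins IFITM1, IFITM2 and IFITM3, which block viral entry, were all lower (-0.06, -0.17 and -0.19). In contrast GBP3, a guanylate-binding protein, was 0.32 higher, with GBP4 at 0.05 and GBP5 at -0.11. ZBP1, a sensor of Z-form nucleic acid, was at 0.24, but it passed the filter only on the romidepsin plus sildenafil array, where it is high.

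The response element letters were common in this list. Of the 36 members past the filter with a listed promoter 23 (63.9%) held them, against the 3.65% of all promoters. Those 23 genes had a median difference of -0.10 (from -0.62 to 0.32), and the 13 without the letters of -0.03 (from -0.29 to 0.19). ISG20 and CXCL10 had the lowest differences of the 23 and were chosen for their differences, so the medians only describe these genes. The range without the letters lay inside the range with them, and the difference between these medians was not tested.

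**Figure D4:**
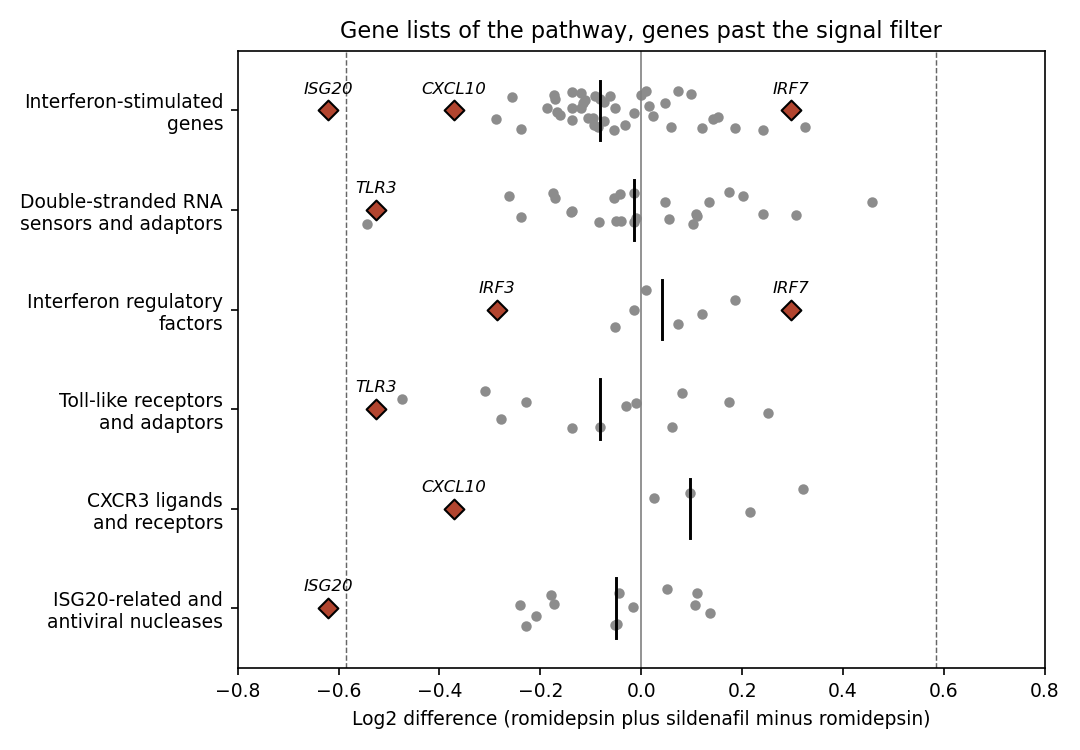
Log2 difference (romidepsin plus sildenafil minus romidepsin, horizontal axis) of the genes past the filter in 6 gene lists (rows), with the 5 genes as labelled diamonds, list medians as black bars and 1.5-fold as dashed lines. ISG20 lies beyond the lower dashed line, and the list medians lie between -0.08 and 0.10.

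CXCL10 shares the receptor CXCR3 with CXCL9 and CXCL11, and all 3 ligands read lower with sildenafil. CXCL11 was 2.76 with romidepsin plus sildenafil and 3.07 with romidepsin, and CXCL9 was 2.12 with romidepsin plus sildenafil and 2.23 with romidepsin, so both were below the filter level on both arrays. The platelet chemokines PF4 (0.32) and PF4V1 (0.22), which can also bind CXCR3, were higher, though PF4V1 passed the filter only on the romidepsin plus sildenafil array, where it is high. CXCR3 itself was below the filter level, at 3.83 with romidepsin plus sildenafil and 3.67 with romidepsin. DPP4, a protease that truncates CXCL10, differed by 0.03 and the scavenging receptor ACKR3 by 0.10.

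Among the other chemokines CCL4 was the only gene past both the filter and 1.5-fold, against 0.972% (lower) and 1.02% (higher) over all genes. It read 4.56 with romidepsin plus sildenafil and 3.92 with romidepsin, a difference of 0.64. Of 14 chemokines past the filter 8 were higher and 6 lower, with a median of 0.01, or -0.02 under median centring. Among them CCL25 (0.22) passed on the romidepsin plus sildenafil array alone and CXCL5 (-0.09) on the romidepsin array alone. CCL22 differed by -0.45, CCL3 by -0.33 and CCL26 by 0.25, while CCL5, a chemokine of cytotoxic lymphocytes, was at 0.00.

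ISG20 differed more between the arrays than the other nucleases measured. However, it was chosen for its difference and was the dimmest nuclease past the filter, and the spread is wider among dim genes. Of 14 nucleases past the filter 10 were lower and 4 higher, with a median of -0.05. After ISG20 came the exosome subunit EXOSC3 (-0.24), and ERI3 (-0.23) and ERI2 (-0.21), exonucleases of the same broad superfamily as ISG20. AEN, a p53-induced nuclease related to ISG20, was at -0.18. The highest was ERI1, a histone mRNA exonuclease, at 0.14.

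NF-kappaB, which acts with IRF3 at promoters such as that of CXCL10, gave 10 lower and 3 higher genes of 13, with a median of -0.10. Over all genes 52.4% were lower and the median was -0.01. Under quantile normalization the median of the 13 was -0.05, where that over all genes was 0.02. None of the 13 was past 1.5-fold, against 0.972% (lower) and 1.02% (higher) over all genes. TAB3, an adaptor of the kinase TAK1, differed by -0.27, RELB by -0.23, NFKB1 by -0.22 and RELA by 0.15. Negative regulators of interferon induction gave 9 higher and 6 lower genes of 15, with a median of 0.04. FOXO3 differed by -0.32, ATG5 by -0.30, SOCS1 by -0.26 and PCBP2, which promotes the breakdown of MAVS, by 0.24.

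Across all lists together, markers included, 195 genes passed the filter, and only ISG20 (lower) and CCL4 (higher) reached 1.5-fold. That is 1 gene in each direction, against 0.972% lower and 1.02% higher over all 10081 genes, and ISG20 had been chosen for its difference. Only 4 of the 195 differed by at least as much as TLR3, itself included, and 11 by at least as much as CXCL10. For IRF7 the count was 21 and for IRF3 it was 23. TLR3, CXCL10, IRF7 and IRF3 were also chosen for their differences on these arrays, so these counts only describe them.

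By level and difference on the 2 arrays, the genes nearest to ISG20 were C19orf81 and MIR1294, at Euclidean distances of 0.029 and 0.035 log2 units. For CXCL10 they were ANO9 (0.023) and DLGAP1-AS1 (0.034), for IRF7 TMIGD3 (0.0044) and SHISA3 (0.0072). For IRF3 they were NOCT (0.0082) and TMEM163 (0.014), and for TLR3 ARL6 (0.042) and LOC100652768 (0.048). With 2 arrays such likeness is easily met and says nothing of a shared role.

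Markers of NK and T cells, the labelled origin of the line, were measured on both arrays with similar summed signals. Of 14 named NK and T cell markers 13 passed the filter, among them PRF1, CD2 and NCAM1, and the summed linear signal of all 14 was 1527 with romidepsin plus sildenafil and 1578 with romidepsin. Of the 13, 7 were higher and 6 lower, and GNLY, at 0.11, passed on the romidepsin plus sildenafil array alone. EOMES was below the filter level on both arrays. TBX21, the transcription factor T-bet, differed by 0.47, the activating receptor NCR2 by 0.38, the granule protein NKG7 by -0.27 and the T cell antigen CD6 by -0.25. For monocyte, macrophage and dendritic cells, which can be strong sources of CXCL10, 5 of 10 named markers passed. All 10 summed to 223 with romidepsin plus sildenafil and 226 with romidepsin, and CD14, LYZ and CD163 were below the filter level on both arrays. VSIG4, which passed on the romidepsin array alone, differed by -0.42, CSF1R by 0.27, CD68 by -0.11 and S100A9 by 0.10. All 5 named B cell markers, of which 4 passed, summed to 256 with romidepsin plus sildenafil and 270 with romidepsin. Those 4 were FCRL1 at 0.21, which passed on the romidepsin plus sildenafil array alone, PAX5 at -0.18, CD22 at -0.09 and BLK at -0.04. All 8 named fibroblast, endothelial and epithelial markers, of which 3 passed, summed to 260 with romidepsin plus sildenafil and 231 with romidepsin. The 3 were the keratins KRT18 at 0.34, KRT8 at -0.30 and KRT19 at -0.26, the last of which passed on the romidepsin array alone. No marker was listed at 0, and the part of any of these in the differences above was not tested.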

How the data were processed

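RNA was made into biotin-labelled sense cDNA by whole-transcript amplification for arrays, per the labels' protocols. The deposited table holds log2 signals for 53617 probe sets on 2 arrays. The log base was taken as 2 because the highest value, 13.05, exceeds the natural log of a 16-bit ceiling (11.1). The authors' summarisation and normalization are not stated in the labels; sorted, the columns differed nowhere by more than 0.15, so a shift shared by most genes would not be seen. No detection calls or batches accompany the values, batch and treatment cannot be told apart, and the number of arrays limits the precision.

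The platform annotation deposited in GEO named 16098 probe sets with 1 gene and 0 with several; the other 37519 were not used. All identifiers matched the RefSeq gene table. The text names the 5 genes, the 4 genes of each list with the largest differences, genes at 1.5-fold or more, and the 2 genes nearest to each member; further list members, chosen after their values were seen, are named for their role. Members and lists were chosen with earlier results of these data known. Alternatives changed normalization, filter, threshold, probe set handling, neighbour number and pseudocount. Counting was tested on simulated data. Protein sequences were not compared here. Python 3.11.15, numpy 2.4.6, pandas 2.3.3, statsmodels 0.14.6 and matplotlib 3.10.9 were used.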

Additional observations from a re-analysis of the deposited data

How the results depend on the processing

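Across 5 alternatives (lowess centring at span 0.3, quantile normalization, median centring, the mean over probe sets, and a pseudocount of 16 on the linear scale) the 5 genes kept their direction in 25 of 25 values, and 24 were on the same side of 1.5-fold. Only the pseudocount, which by construction shrinks dim signals, moved a value by over 0.1: ISG20 to -0.39, short of 1.5-fold, CXCL10 to -0.19, IRF7 to 0.15 and TLR3 to -0.37. With 200 or 1000 neighbours or lowess centring, the shares of genes as far apart lay within 1.5 times those reported. The count of genes at least 1.5-fold higher was 57 under lowess centring, and the cause was not tested. Without a filter 223 genes were higher and 156 lower, with the filter raised by 1 there were 34 and 50, at 2-fold 9 and 9, and at a log2 difference of 0.32 they were 674 and 609, all by construction. Of 112 list medians under alternatives 17 moved by over 0.1 or past 0, and the movements over 0.1 were in 2 lists of cell type markers with few genes past the filter. No paired analysis was possible because each group holds 1 array.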

Other observations

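Genes that keep repeat elements silent, and could thereby set how much double-stranded RNA a cell makes, had no common direction where measured. The editing enzymes ADAR, ADARB1 and ADARB2, and silencing genes such as SETDB1, are not analysed here. Of 17 silencing genes past the filter 8 were higher with romidepsin plus sildenafil and 9 lower. None of the 17 reached 1.5-fold, against 0.972% (lower) and 1.02% (higher) over all genes. Their median was -0.01, or 0.04 under quantile normalization. CBX3, a heterochromatin protein, differed by -0.27, where its genes of like signal had an SD of 0.12. The DNA methyltransferase DNMT3B differed by -0.26, where that SD was 0.26. ATF7IP, a partner of the histone methyltransferase SETDB1, differed by -0.15 and MORC2 by -0.14. DNMT1 was at 0.00 and TRIM28, a corepressor of zinc finger proteins, at 0.10.

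The parallel route that senses cytosolic DNA had no common direction either. Of 12 genes past the filter 5 were higher and 7 lower, with a median of -0.01, or 0.04 under quantile normalization. The sensor CGAS was at 0.05 and its adaptor STING1 at -0.01. The largest differences were ZBP1 at 0.24, which passed the filter only on the romidepsin plus sildenafil array, the RNA polymerase III subunits POLR3G at -0.19 and POLR3C at -0.13, and AIM2, an inflammasome sensor, at -0.18.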
